A study of Mus musculus with 16 samples.

Results

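Collagen genes were followed in 2 fat depots, gonadal and subcutaneous, of female mice with a null allele of Lcn2 (B6.129P2-Lcn2tm1Aade/AkiJ, on C57BL/6J). The gonadal table holds 30325 genes and the subcutaneous one 30946. The collagen set holds 33 of them, given by symbol and chosen with earlier results of these data known. It divides into 8 fibrillar collagens, 8 collagens of basement membranes and 17 others. Another 11 genes with collagen symbols in the tables are not in the set. All 33 matched 1 row in each table. Mice had received an AAV8 vector at 8 weeks of age that carried LCN2 or, in controls, green fluorescent protein (GFP). Both constructs were driven by the adiponectin promoter, which is active in fat cells, and carried a target of microRNA-122 that reduces expression in liver. Mice of both groups lacked their own functional Lcn2 and ate the same HF/HS diet (D12266B) until 16 weeks of age. Each depot has 4 LCN2 and 4 GFP samples. Apart from the group size, the labels do not say that the samples come from separate mice, nor whether a replicate number is the same mouse in both depots, so each p-value measures only how these samples spread.

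Collagens are secreted or membrane proteins whose chains wind into a long helix built from repeats that start with glycine. Fibrillar collagens assemble into the cables that give tissue its tensile strength, type IV chains form the sheet under endothelium and around each fat cell, and type VI forms beaded filaments between the sheet and the cables. In fat, type VI is abundant around fat cells and its deposition is known to accompany expansion of the depot in obesity. Most fibrillar collagen of fat comes from fibroblasts and their progenitors, while endothelial and fat cells also make type IV.

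Gonadal values were normalized counts, that is reads divided by a size factor for each sample, at depths of 35173260 to 42890102 recovered reads. Subcutaneous values were rlog, a log2 scale that draws low genes towards their mean and so understates their differences, and the depth there is unknown. Lcn2 itself had normalized counts of 186, 189, 522 and 481 in gonadal LCN2 samples, against 103, 62.1, 70.0 and 89.5 in gonadal GFP samples. Its rlog values were 8.74, 8.49, 9.45 and 9.82 in subcutaneous LCN2 samples, against 7.76, 8.32, 8.23 and 8.37 in subcutaneous GFP samples. Lcn2 was thus higher in every LCN2 sample than in any GFP sample of the same depot, although it did not pass the test over all genes (limma, adjusted p = 0.108 and 0.308). All 8 markers of fat cells were above the filter on low values in both depots. Transcripts of other tissues differed between libraries. Skeletal muscle markers summed to 38171 in gonadal LCN2 replicate 4 and to at most 6946 elsewhere in that depot, and hepatocyte genes summed to 44879 in LCN2 replicate 2, 18738 in LCN2 replicate 1 and 16029.5 in GFP replicate 1, against at most 4736 in the other gonadal samples. Lymph node markers summed to 16681 and 7200.3 in subcutaneous GFP replicates 1 and 2 and to at most 2446 in the other subcutaneous samples, as values of 2 raised to the rlog. On the same scale hepatocyte genes summed to 10722 in subcutaneous GFP replicate 2 and to at most 3527 in the other subcutaneous samples. In bulk tissue a smaller number of cells of a type and less RNA per cell cannot be told apart.

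In gonadal fat the highest collagens per length came from all 3 groups, with the common type IV chains first. Per kilobase of exon, Col4a1 and Col4a2, the chains of the common type IV network, came first with mean normalized counts of 8871 and 7165 over the 8 samples. They were followed by Col6a1 with 6649, by Col15a1, a proteoglycan of basement membranes, with 5324, and by Col3a1 with 3982. Col5a3, Col6a2 and Col1a1 lay close together at 3113, 3079 and 3039.6 per kilobase, closer than the spread between samples. Col4a1 and Col4a2 made up 18.4% and 14.8% of the summed level per kilobase of the 33 genes. The lowest that passed the filter were Col17a1 and Col7a1, at 3.78 and 3.53 per kilobase.

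In gonadal fat 30 of the 33 genes passed the filter, a mean normalized count of at least 10. Too low were Col11a1, which forms thin fibrils in cartilage, with 4 to 10 recovered reads per sample, and Col19a1 and Col25a1, with 1 to 10 and 0 to 13. In subcutaneous fat 32 genes passed, a mean rlog of at least 3, and Col19a1 was too low at 2.18 to 2.22 in LCN2 samples and 2.11 to 2.22 in GFP samples. The filter used the mean of all 8 samples, and each gene that passed was above it in both groups. Set per length on the rlog scale, the order of subcutaneous levels again had Col4a1 first, then Col3a1, Col4a2, Col1a1 and Col6a1, and Col17a1, Col7a1 and Col4a6 stood higher in this order than in gonadal fat. The tables had been normalized separately and have different scales. Only the order within each depot was set side by side, and levels were not compared between depots.

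**Figure D1:**
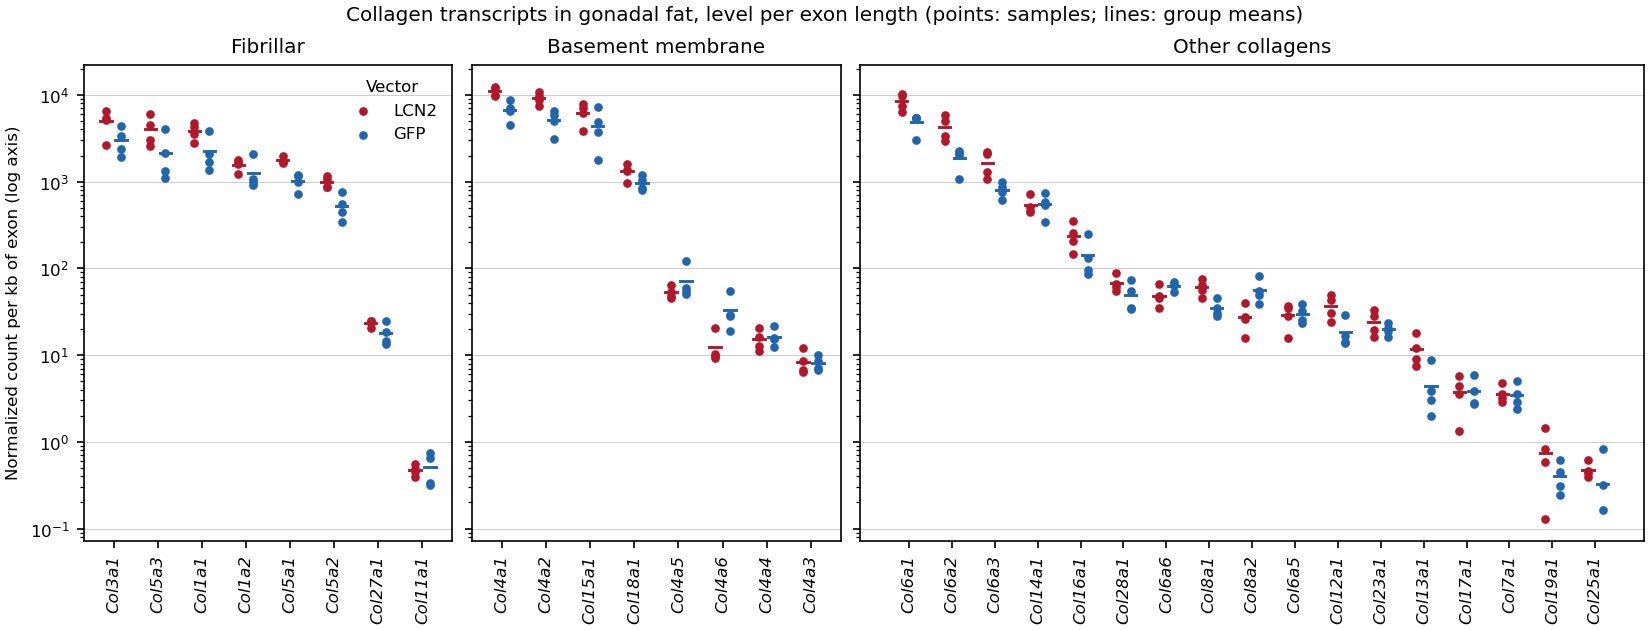
Normalized count per kilobase of exon in gonadal fat (log axis) for the 33 collagen genes in 3 panels, with points for the 4 LCN2 and 4 GFP samples and lines for group means; a value of 0, in Col25a1 of GFP replicate 3, is not drawn. The levels run from 8871 for Col4a1 to 0.402 for Col25a1 as means over all samples.

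With the LCN2 vector the main structural collagens of gonadal fat had higher values: types I, III and V, the common type IV chains and the 3 main chains of type VI. Col4a6 and Col8a2 had lower values. None of these differences passed the test over all genes. The 33 genes together took 0.959%, 1.36%, 1.29% and 1.02% of recovered reads in LCN2 samples, against 0.697%, 0.454%, 0.724% and 0.948% in GFP samples. The lowest LCN2 sample was just above the highest GFP sample, replicate 4, and GFP replicate 2 was the lowest of all.

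Limma, run on log2 of the normalized count plus 1 over 19536 genes with Benjamini-Hochberg adjustment, called none of the 30 tested collagens at an adjusted p under 0.05, where it called 0.102% of all genes. EdgeR on recovered reads also called none, against 0.0358% of all genes, or 0.0205% as higher. DESeq2 on recovered reads called 11 of the 30, against 4.19% of all genes. It called 9 of them as higher, against 2.27% of all genes: Col5a1, Col5a2, Col4a1, Col4a2, Col6a1, Col6a2, Col6a3, Col8a1 and Col12a1. Col4a6 and Col8a2 it called as lower. At an unadjusted p under 0.05 limma had 14 of the 30 higher, where 7.44% of all genes were, and 2 lower, where 7.38% were. In 7 of the 30 all LCN2 samples lay above all GFP samples, against 4.40% of all genes, and in none did they all lie below, against 4.71%. The log2 fold change was above 0 in 22 of the 30, against 52.0% of all genes. Its median was 0.56 over the 30 and 0.011 over all tested genes. Without the library of each group highest in muscle markers, LCN2 replicate 4 and GFP replicate 2, 13 of the 30 had an unadjusted p under 0.05 in either direction, against 8.65% of all genes. Without the 3 libraries highest in hepatocyte genes 11 did, against 8.30% of all genes, and with all samples 16 did, against 14.8%. GFP replicate 2 had a muscle marker sum of 2607, below LCN2 replicates 1 and 2 with 6946 and 3443, which were kept. It was the lowest GFP sample for 15 of the 30 collagens, so leaving it out changes more than muscle markers. Proliferation markers also had higher values, all 8 of them above 0, and summed to 959 to 2286 in LCN2 samples and 461 to 752 in GFP samples. Their part in the result was not tested.

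**Figure D2:**
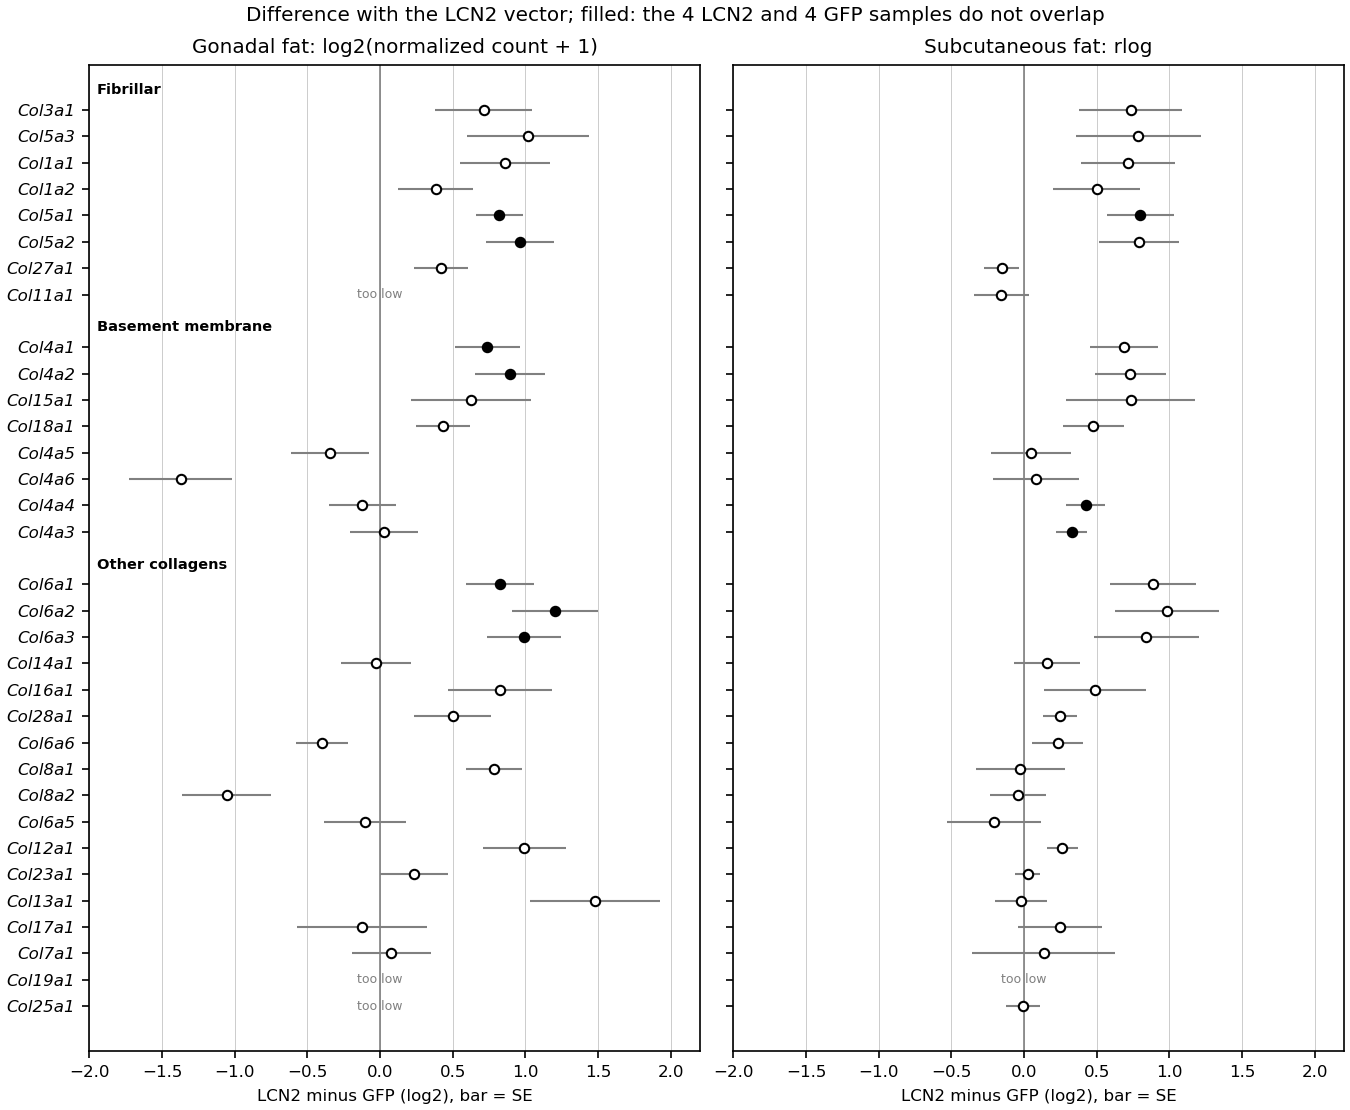
LCN2 minus GFP on the log2 scale for each collagen (points) with its SE (bars), in gonadal fat on the left and subcutaneous fat on the right; filled points mark genes whose LCN2 and GFP samples do not overlap. Most common fibrillar, type IV and type VI chains lie to the right of 0 in both depots, while Col4a6 at -1.37 and Col8a2 at -1.06 lie to the left in gonadal fat.

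Among fibrillar collagens, all 7 tested genes had a positive log2 fold change in gonadal fat and their median was 0.82. Col5a1 encodes the type V chain that nucleates fibrils and keeps them thin. Its normalized counts were 14043, 14659.6, 16932 and 14459.9 in LCN2 samples, against 10222, 6150, 8308 and 9902 in GFP samples. The log2 fold change was 0.82 ± 0.16 (SE), with an adjusted p of 0.111 by limma and 0.000737 by DESeq2. The LCN2 samples lay close together and all above the GFP samples. Of its exonic bases, 2.50% also lie in exons of genes on the other strand.

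Col5a2, the partner chain of Col5a1, had normalized counts of 8244, 11098, 10349.5 and 8268 in LCN2 samples, against 4295, 3259.7, 5287 and 7339 in GFP samples, a log2 fold change of 0.96 ± 0.23 (SE), with limma's adjusted p at 0.158 and DESeq2's at 0.0124. Again no GFP sample reached an LCN2 sample, and GFP replicate 4 came closest. Col5a3, the third type V chain, had counts of 17573, 30791, 41483 and 20806 in LCN2 samples, against 14482, 9151, 27702 and 7586 in GFP samples and a log2 fold change of 1.02 ± 0.42 (SE), with limma's adjusted p at 0.305. Its groups overlapped, since GFP replicate 3 lay above LCN2 replicates 1 and 4, while GFP replicate 4 was the lowest of all.

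The type I and III chains, which make the bulk of fibrils, had values of the same sign with wider spread. Col1a1 had counts of 23055, 31181, 28071 and 18327 in LCN2 samples, against 13785, 8926, 11096 and 25150.2 in GFP samples, and a log2 fold change of 0.86 ± 0.31 (SE), with limma's adjusted p at 0.251. Col1a2, which supplies the other chain of type I, had 22162, 21124, 19788 and 15253 in LCN2 samples, against 13249, 12451, 11469 and 25885 in GFP samples, and 0.38 ± 0.26 (SE), with limma's adjusted p at 0.538. Col3a1, the chain of fine reticular fibrils, had 53050.3, 50708, 64150.2 and 26269 in LCN2 samples, against 23589, 18786, 32823 and 43284 in GFP samples, and 0.71 ± 0.33 (SE), with limma's adjusted p at 0.363. In all of these genes GFP replicate 4 lay above LCN2 replicate 4, so the groups overlapped. Without GFP replicate 4 the log2 fold change of Col1a2 was 0.65. Without the 3 libraries highest in hepatocyte genes it was 0.17 for Col1a2 and 0.46 for Col3a1. Col27a1, a low fibrillar collagen best known from cartilage, had a range of 268 to 324 in LCN2 samples, against 175 to 323 in GFP samples, and a log2 fold change of 0.42 ± 0.19 (SE). Markers of fibroblasts and progenitors summed to 39205 to 53635 in LCN2 samples and 42508 to 84768 in GFP samples, with 4 of 8 above 0 and a median log2 fold change of 0.041. The highest sum of these markers was in GFP replicate 4. Smooth muscle and pericyte markers summed to 34627 to 55703 in LCN2 samples and 16529 to 76545 in GFP samples, with 5 of 8 above 0. The part of either cell type in the result was not tested.

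The genes of type IV collagen lie in pairs that start next to each other on opposite strands, and in gonadal fat their values pointed in unlike directions. Col4a1 (chromosome 8, 11198423 to 11312826 on the minus strand) and Col4a2 (11312805 to 11449287 on the plus strand) encode the network of nearly all basement membranes. Col4a1 had normalized counts of 72134, 92581, 89051 and 74582 in LCN2 samples, against 53046, 33342, 49399.9 and 65542 in GFP samples, a log2 fold change of 0.74 ± 0.22 (SE), with limma's adjusted p at 0.199 and DESeq2's at 0.0248. Col4a2 had 49025, 71621, 65173 and 58614 in LCN2 samples, against 38449, 20451, 33269.8 and 42816 in GFP samples, and 0.90 ± 0.24 (SE), with limma's adjusted p at 0.181 and DESeq2's at 0.013. Every LCN2 sample was above every GFP sample for both chains, and GFP replicate 2 was the lowest for both. Endothelial markers summed to 41324 to 46859 in LCN2 samples and 20249 to 41749.7 in GFP samples, with 8 of 8 above 0 and a median log2 fold change of 0.43. GFP replicate 2 had the lowest of these sums, and the part of endothelial RNA in the result was not tested.

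The annotated first exons of Col4a1 and Col4a2 overlap by 22 bases, and those of Col4a4 and Col4a3 are 71 bases apart. Both stretches are shown because they are where a pair starts, from RefSeq promoter windows of GRCm38.p6, plus strand, 5′ to 3′. Capitals mark the GC box GGGCGG or its reverse complement CCGCCC.
Col4a1 and Col4a2, chr8:11312805-11312826: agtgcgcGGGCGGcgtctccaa
Col4a4 and Col4a3, chr1:82586850-82586920: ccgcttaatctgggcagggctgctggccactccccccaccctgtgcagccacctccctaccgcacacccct
The first stretch holds 1 GC box and the second none.

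Col4a3 and Col4a4, whose chains form the network of the kidney filter, were low, with differences within 1 SE of 0. Col4a3 had counts of 63.2 to 121 in LCN2 samples, against 66.8 to 100.2 in GFP samples, with a log2 fold change of 0.027 ± 0.24 (SE), and Col4a4 had 117 to 219 in LCN2 samples, against 133 to 233 in GFP samples, with -0.12 ± 0.23 (SE). Col4a6 and Col4a5, the pair on chromosome X whose chains are found in epithelial and smooth muscle basement membranes, start 1308 bases apart. Col4a6 had counts of 77.3, 162, 81.6 and 73.2 in LCN2 samples, against 231, 227, 149.5 and 443 in GFP samples, a log2 fold change of -1.37 ± 0.36 (SE), with limma's adjusted p at 0.174 and DESeq2's at 0.0129. LCN2 replicates 1, 3 and 4 lay below all GFP samples, and LCN2 replicate 2 lay just above GFP replicate 3. Col4a5 had 362, 429.6, 323 and 308 in LCN2 samples, against 397, 365, 336 and 822 in GFP samples, and -0.34 ± 0.27 (SE), with limma's adjusted p at 0.61. Its range was narrow apart from GFP replicate 4, and without that library the log2 fold change was -0.050.

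Markers of mesothelium, the cell layer over gonadal fat, were low in the same samples as Col4a6. They summed to 3236, 7041, 3033 and 3037 in LCN2 samples, against 8781, 8779, 6905 and 14384 in GFP samples. All 8 were below 0, with a median log2 fold change of -1.32. In 5 of the 8 every LCN2 sample lay below every GFP sample, against 4.71% of all genes. LCN2 replicate 2 was the highest LCN2 sample and GFP replicate 4 the highest GFP sample for the markers and for Col4a6 alike. The same libraries were highest for smooth muscle and pericyte markers, with sums of 55703 and 76545. So they were for keratinocyte and mammary markers, with 640.4 and 661, and for lymph node markers, with 381 and 509. Of the 30 tested collagens, 14 were highest in that LCN2 library among LCN2 samples and 19 in that GFP library among GFP samples. The part of mesothelial RNA or of these other cell types in the result was not tested.

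Of the proteoglycan collagens of basement membranes, Col18a1, the source of endostatin, had counts of 6719, 11267, 9462 and 9366 in LCN2 samples, against 8481, 5599, 7283 and 5864 in GFP samples, and a log2 fold change of 0.43 ± 0.18 (SE), with limma's adjusted p at 0.321. Col15a1 had 24146, 39299, 49976 and 45097 in LCN2 samples, against 30612, 23682, 46324 and 11282 in GFP samples, and 0.62 ± 0.41 (SE), with limma's adjusted p at 0.532. Both overlapped between groups, and Col15a1 varied most within the GFP group, where replicate 4 was the lowest and replicate 3 was near the top of all samples. Without GFP replicate 4 the log2 fold change of Col15a1 was 0.25. Over the 8 basement membrane collagens the median was 0.23, with 5 above 0. Single samples weighed on this median, which was 0.35 without LCN2 replicate 1, 0.12 without LCN2 replicate 3, 0.15 without GFP replicate 4 and 0.42 without the 3 libraries highest in hepatocyte genes.

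Col6a2, a chain of type VI, had the largest log2 fold change of the 10 collagens highest per kilobase in gonadal fat. Col6a1, Col6a2 and Col6a3 encode the 3 chains of the usual type VI molecule. Col6a1 had normalized counts of 27964, 44921, 42812 and 32735 in LCN2 samples, against 23667, 13419, 23891 and 23575 in GFP samples, a log2 fold change of 0.82 ± 0.23 (SE), with limma's adjusted p at 0.186 and DESeq2's at 0.02. Col6a2 had 24384, 48442, 41986 and 28152 in LCN2 samples, against 16758, 8846, 18702 and 17796 in GFP samples, and 1.21 ± 0.30 (SE), with limma's adjusted p at 0.158 and DESeq2's at 0.00312. Col6a3, whose tail is cleaved into the signalling fragment endotrophin, had 15385, 24785, 26379 and 12801 in LCN2 samples, against 9161, 7291, 12013 and 10260.5 in GFP samples, and 0.99 ± 0.26 (SE), with limma's adjusted p at 0.173 and DESeq2's at 0.00577. For all of these chains every LCN2 sample was above every GFP sample, with LCN2 replicates 2 and 3 the highest and GFP replicate 2 the lowest.

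The alternative type VI chains, which can take the place of Col6a3, had values below 0. Col6a6 had counts of 319.9 to 599.8 in LCN2 samples, against 494 to 636 in GFP samples, with a log2 fold change of -0.40 ± 0.18 (SE), or -0.26 without LCN2 replicate 4. Col6a5 had 146 to 350.3 in LCN2 samples, against 219 to 367 in GFP samples, with -0.11 ± 0.28 (SE). Both overlapped between groups. Col6a6 and Col6a5 lie 27917 bases apart on chromosome 9, and Col6a2 and Col6a1 lie 85161 bases apart on chromosome 10.

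The network collagens Col8a1 and Col8a2, which join in one molecule around vessels and in the cornea, had values of opposite sign. Col8a1 had counts of 357, 500.2, 441 and 599 in LCN2 samples, against 222, 241, 276 and 359.7 in GFP samples, a log2 fold change of 0.79 ± 0.19 (SE), with limma's adjusted p at 0.158 and DESeq2's at 0.0158. LCN2 replicate 1 and GFP replicate 4 were nearly equal, and otherwise the LCN2 samples were higher. Col8a2 had 117, 181, 70.3 and 124 in LCN2 samples, against 249, 221, 175 and 366 in GFP samples, and -1.06 ± 0.30 (SE), with limma's adjusted p at 0.189 and DESeq2's at 0.0368. Here LCN2 replicate 2 lay just above GFP replicate 3, and the other LCN2 samples lay below all GFP samples, the same order as for Col4a6 at this boundary. The sums of mesothelial and other markers given for Col4a6 stand beside Col8a2 as well, and their part was not tested.

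**Figure D3:**
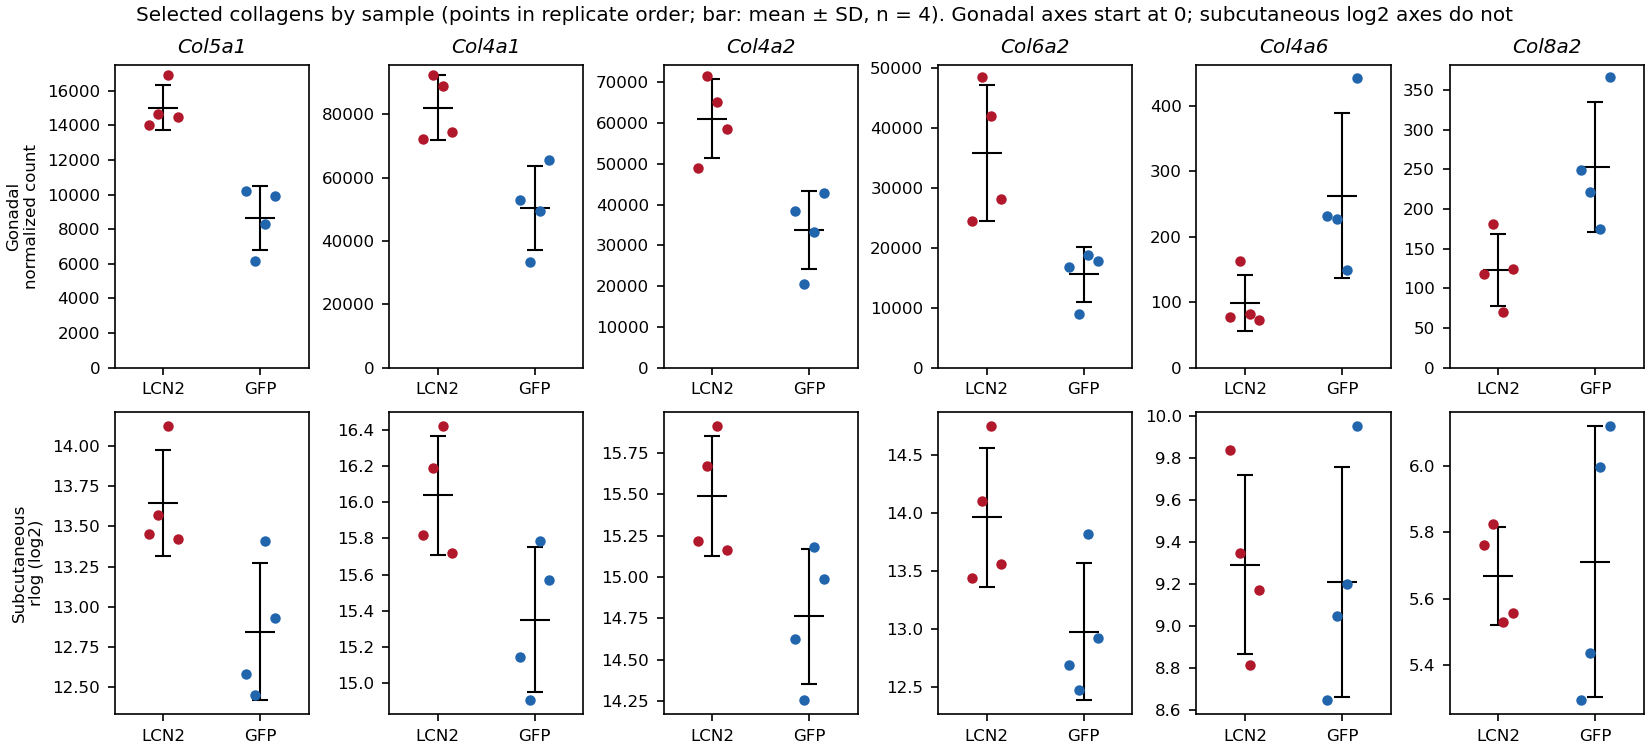
Values by sample of 6 collagens, as normalized counts in gonadal fat (top, axes from 0) and rlog in subcutaneous fat (bottom, axes not from 0), with points in replicate order and bars for mean ± SD (n = 4). Col5a1, Col4a1, Col4a2 and Col6a2 are higher in every gonadal LCN2 sample than in any gonadal GFP sample, and Col4a6 and Col8a2 overlap by 1 sample on each side.

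Collagens that decorate fibrils (the FACIT group) were mixed in gonadal fat. Col12a1, which links fibrils under tension, had counts of 368, 655, 464 and 744 in LCN2 samples, against 255, 213, 217 and 444 in GFP samples, a log2 fold change of 0.99 ± 0.29 (SE), with limma's adjusted p at 0.189 and DESeq2's at 0.041. GFP replicate 4 was above LCN2 replicate 1. Col16a1 had 1392, 2357, 1000 and 1712 in LCN2 samples, against 899, 653, 577 and 1679 in GFP samples, and 0.83 ± 0.36 (SE), with limma's adjusted p at 0.329. Col14a1 had 3125 to 5103 in LCN2 samples, against 2404 to 5244 in GFP samples, and -0.029 ± 0.24 (SE), a value within 1 SE of 0.

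Membrane-spanning and epithelial collagens had low counts in gonadal fat. Col13a1, a transmembrane collagen of the neuromuscular junction, had counts of 56.0, 41.3, 83.9 and 34.1 in LCN2 samples, against 17.9, 9.16, 40.3 and 14.1 in GFP samples, a log2 fold change of 1.48 ± 0.45 (SE), with limma's adjusted p at 0.201 and DESeq2's at 0.0791. GFP replicate 3 lay inside the LCN2 range. Skeletal muscle markers were all 8 above 0, with a median of 1.75 and sums of 2143 to 38171 in LCN2 samples and 1166 to 2607 in GFP samples. They were highest in LCN2 replicate 4, which had the lowest Col13a1 of the LCN2 samples, and their part in the result was not tested. Col23a1, another transmembrane collagen, had 93.0 to 189 in LCN2 samples, against 92.8 to 135 in GFP samples, with a log2 fold change of 0.23 ± 0.23 (SE). That value was 0.41 without LCN2 replicate 3, 0.15 without LCN2 replicate 2, 0.14 without GFP replicate 1 and 0.068 without LCN2 replicate 4. Col17a1, which anchors epithelial cells at hemidesmosomes, had 8.00 to 34.1 in LCN2 samples, against 16.3 to 35.6 in GFP samples, with -0.13 ± 0.45 (SE). Col7a1, the anchoring fibril of skin, had 29.2 to 49.1 in LCN2 samples, against 24.4 to 51.4 in GFP samples, with 0.078 ± 0.27 (SE). Markers of keratinocytes and mammary epithelium summed to 257 to 640.4 in LCN2 samples and 374 to 661 in GFP samples, and Krt5, Krt14 and Cdh1 among them were below the filter. Col28a1, which surrounds Schwann cells, had 271 to 439 in LCN2 samples, against 166 to 361 in GFP samples, with a log2 fold change of 0.50 ± 0.26 (SE), while Schwann cell markers summed to 5046 to 8193 in LCN2 samples and 5583 to 9968 in GFP samples.

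Promoters are shown for 3 of the chains whose LCN2 samples all lay above the GFP samples and for both genes with lower values. Of the 33 genes, 28 had a window of 250 bases before the start in RefSeq (GRCm38.p6). The 150 bases before the start are given in the direction of the gene, with GC boxes (GGGCGG or CCGCCC) in capitals.
Col5a1, chr2:27886275-27886424, plus strand: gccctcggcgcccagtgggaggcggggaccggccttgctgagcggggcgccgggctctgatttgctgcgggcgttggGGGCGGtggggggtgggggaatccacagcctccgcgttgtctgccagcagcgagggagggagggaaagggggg
Col6a2, chr10:76623631-76623780, minus strand: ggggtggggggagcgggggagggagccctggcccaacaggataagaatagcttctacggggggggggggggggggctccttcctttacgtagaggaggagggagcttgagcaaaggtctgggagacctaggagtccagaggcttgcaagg
Col6a3, chr1:90843972-90844121, minus strand: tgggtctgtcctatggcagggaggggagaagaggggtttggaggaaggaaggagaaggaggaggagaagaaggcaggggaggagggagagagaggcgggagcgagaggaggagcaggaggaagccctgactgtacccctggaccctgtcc
Col4a6, chrX:141474077-141474226, minus strand: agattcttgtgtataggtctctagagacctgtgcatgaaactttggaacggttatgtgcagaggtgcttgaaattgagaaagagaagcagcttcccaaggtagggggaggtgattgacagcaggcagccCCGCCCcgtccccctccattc
Col8a2, chr4:126286644-126286793, plus strand: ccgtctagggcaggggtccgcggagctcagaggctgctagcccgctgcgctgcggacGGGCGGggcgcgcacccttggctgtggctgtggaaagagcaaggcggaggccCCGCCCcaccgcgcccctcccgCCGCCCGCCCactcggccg
The GC box was found on either strand in any 250-base window of 18 of 28 genes (64.3%), against 32.7% of all 32851 single windows. The CCAAT box (CCAAT or ATTGG) was found in 11 of 28 (39.3%), against 33.8%, and the TATA box (TATAAA or TTTATA) in 3 (10.7%), against 12.4%. These set a share of genes against a share of windows, and a gene with several windows has more chances to hold a box. A CCAAT box read on the other strand (ATTGG) can share bases with a GC box. Windows of these genes had a median GC content of 60.6%, against 52.4% for all windows. Both the higher Col5a1 and the lower Col4a6 and Col8a2 had a GC box in the stretch shown, and Col6a3 had none in its 250 bases.

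In subcutaneous fat the same chains of types I, III, V, IV and VI had higher rlog values with the LCN2 vector, and none passed the test. Limma on rlog over 20302 genes called 0 of the 32 tested collagens, and 0.00% of all genes. At an unadjusted p under 0.05, 11 of the 32 were higher, against 7.81% of all genes, and none was lower, against 6.24%. Every LCN2 sample lay above every GFP sample in 3 of the 32, Col5a1, Col4a3 and Col4a4, against 3.81% of all genes, and in none did they all lie below, against 3.27%. The difference was above 0 in 25 of the 32, against 49.8% of all genes. Its median was 0.30 over the 32 and -0.00078 over all tested genes. The GFP libraries with lymph node transcripts were the lowest of their group for most collagens, replicate 1 for 17 of the 32 and replicate 2 for 10. Without both of these libraries 2 of the 32 (6.25%) had an unadjusted p under 0.05, a share near the 4.53% of all genes in the same fit. With all samples and a lymph node marker score as covariate 8 did (25.0%), against 7.89% of all genes. When LCN2 replicate 2 or 3, or GFP replicate 1 or 2, was left out alone, 7 did, against 9.02%, 8.75%, 9.16% and 7.12% of all genes, in that order. Without GFP replicates 1 and 2 the median difference of fibrillar collagens was 0.28, against 0.72 with all samples.

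Of the fibrillar collagens, Col5a1 had subcutaneous rlog values of 13.45, 13.57, 14.13 and 13.42 in LCN2 samples, against 12.59, 12.45, 13.41 and 12.93 in GFP samples, a difference of 0.80 ± 0.23 (SE), with limma's adjusted p at 0.308. Its lowest LCN2 sample was just above its highest GFP sample, and the difference was 0.48 ± 0.23 (SE) without GFP replicates 1 and 2. Col5a2 had 13.21, 13.44, 13.79 and 12.99 in LCN2 samples, against 12.04, 12.23, 13.24 and 12.75 in GFP samples, a difference of 0.79 ± 0.27 (SE), or 0.36 ± 0.23 (SE) without those 2 libraries. Col1a1 had 14.85, 15.09, 15.64 and 14.62 in LCN2 samples, against 13.72, 14.10, 15.16 and 14.36 in GFP samples, a difference of 0.72 ± 0.32 (SE), or 0.29 ± 0.33 (SE) without them. In Col5a2 and Col1a1 GFP replicate 3 reached into the LCN2 group.

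Col3a1 had a subcutaneous difference of 0.73 ± 0.35 (SE), Col1a2 one of 0.50 ± 0.30 (SE) and Col5a3 one of 0.79 ± 0.43 (SE). Without GFP replicates 1 and 2 these were 0.28 ± 0.35, 0.12 ± 0.27 and 0.49 ± 0.53 (SE). Their ranges overlapped between groups, and LCN2 replicate 3 was the highest sample for all of them. Without LCN2 replicate 3 the difference was 0.33 for Col1a2 and 0.49 for Col5a3, and without GFP replicate 1 it was 0.26 for Col1a2. Col27a1 and Col11a1, with differences of -0.16 ± 0.12 (SE) and -0.16 ± 0.19 (SE), were the fibrillar genes with values below 0. With 1 sample left out these ran from -0.26 without GFP replicate 2 to -0.10 without LCN2 replicate 2 for Col27a1, and from -0.31 without GFP replicate 1 to -0.033 without GFP replicate 4 for Col11a1. Fibroblast and progenitor markers in this depot had 6 of 8 above 0, with sums of 29962 to 48599 in LCN2 samples and 26568 to 42738 in GFP samples.

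Col4a1 had subcutaneous rlog values of 15.82, 16.19, 16.43 and 15.72 in LCN2 samples, against 15.14, 14.90, 15.78 and 15.57 in GFP samples, a difference of 0.69 ± 0.23 (SE), and Col4a2 had 15.22, 15.67, 15.92 and 15.16 in LCN2 samples, against 14.62, 14.25, 15.18 and 14.99 in GFP samples, a difference of 0.73 ± 0.24 (SE) (limma, adjusted p = 0.31 and 0.308). GFP replicate 3 lay just above the lowest LCN2 sample for both. Without GFP replicates 1 and 2 the differences were 0.36 ± 0.23 and 0.41 ± 0.24 (SE). Endothelial markers summed to 28903 to 33161 in LCN2 samples and 17590.1 to 30640.4 in GFP samples, with 8 of 8 above 0 and a median difference of 0.46, and their part in the result was not tested.

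The low pair Col4a3 and Col4a4 did not overlap between groups in subcutaneous fat. Col4a3 had 5.37, 5.36, 5.64 and 5.12 in LCN2 samples, against 5.11, 4.95, 5.04 and 5.08 in GFP samples, a difference of 0.33 ± 0.11 (SE), and Col4a4 had 6.77, 6.59, 7.09 and 6.51 in LCN2 samples, against 6.13, 6.38, 6.31 and 6.44 in GFP samples, a difference of 0.42 ± 0.13 (SE) (limma, adjusted p = 0.308 for both). Without GFP replicates 1 and 2 the differences were 0.31 ± 0.14 and 0.36 ± 0.17 (SE). Of the exonic bases of Col4a3, 5.65% also lie in C430014B12Rik on the other strand. Col4a6 had 9.83, 9.35, 8.81 and 9.17 in LCN2 samples, against 8.65, 9.05, 9.20 and 9.95 in GFP samples, a difference of 0.081 ± 0.30 (SE), and Col4a5 one of 0.046 ± 0.27 (SE). Mesothelial markers summed to 4150.3 to 7665 in LCN2 samples and 4059.8 to 7221 in GFP samples in this depot, with 1 of 6 tested above 0, and Wt1 and Upk3b were below the filter. Nearly all of each sum came from Krt19, with rlog values of 11.97 to 12.86 in LCN2 samples and 11.92 to 12.78 in GFP samples. Lrrn4 and Gpm6a reached at most 6.81 and 6.42, so the sums say little about the other markers.

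Col15a1 and Col18a1 had subcutaneous differences of 0.73 ± 0.45 (SE) and 0.48 ± 0.21 (SE), or 0.59 ± 0.59 and 0.26 ± 0.24 (SE) without GFP replicates 1 and 2. For Col15a1 it was 0.48 without LCN2 replicate 3 and 0.47 without GFP replicate 4. Col6a2 had the largest difference of the 32 collagens in subcutaneous fat. Col6a1 had 13.70, 14.15, 14.75 and 13.83 in LCN2 samples, against 12.91, 12.81, 13.94 and 13.23 in GFP samples, a difference of 0.89 ± 0.30 (SE). Col6a2 had 13.44, 14.10, 14.75 and 13.56 in LCN2 samples, against 12.69, 12.47, 13.82 and 12.93 in GFP samples, a difference of 0.98 ± 0.36 (SE). Col6a3 had 13.70, 14.15, 14.90 and 13.79 in LCN2 samples, against 12.85, 12.93, 14.23 and 13.17 in GFP samples, a difference of 0.84 ± 0.36 (SE). The adjusted p by limma was 0.308, 0.323 and 0.35, GFP replicate 3 was higher than at least 1 LCN2 sample for each, and without GFP replicates 1 and 2 the differences were 0.52 ± 0.32, 0.59 ± 0.41 and 0.44 ± 0.41 (SE).

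**Figure D4:**
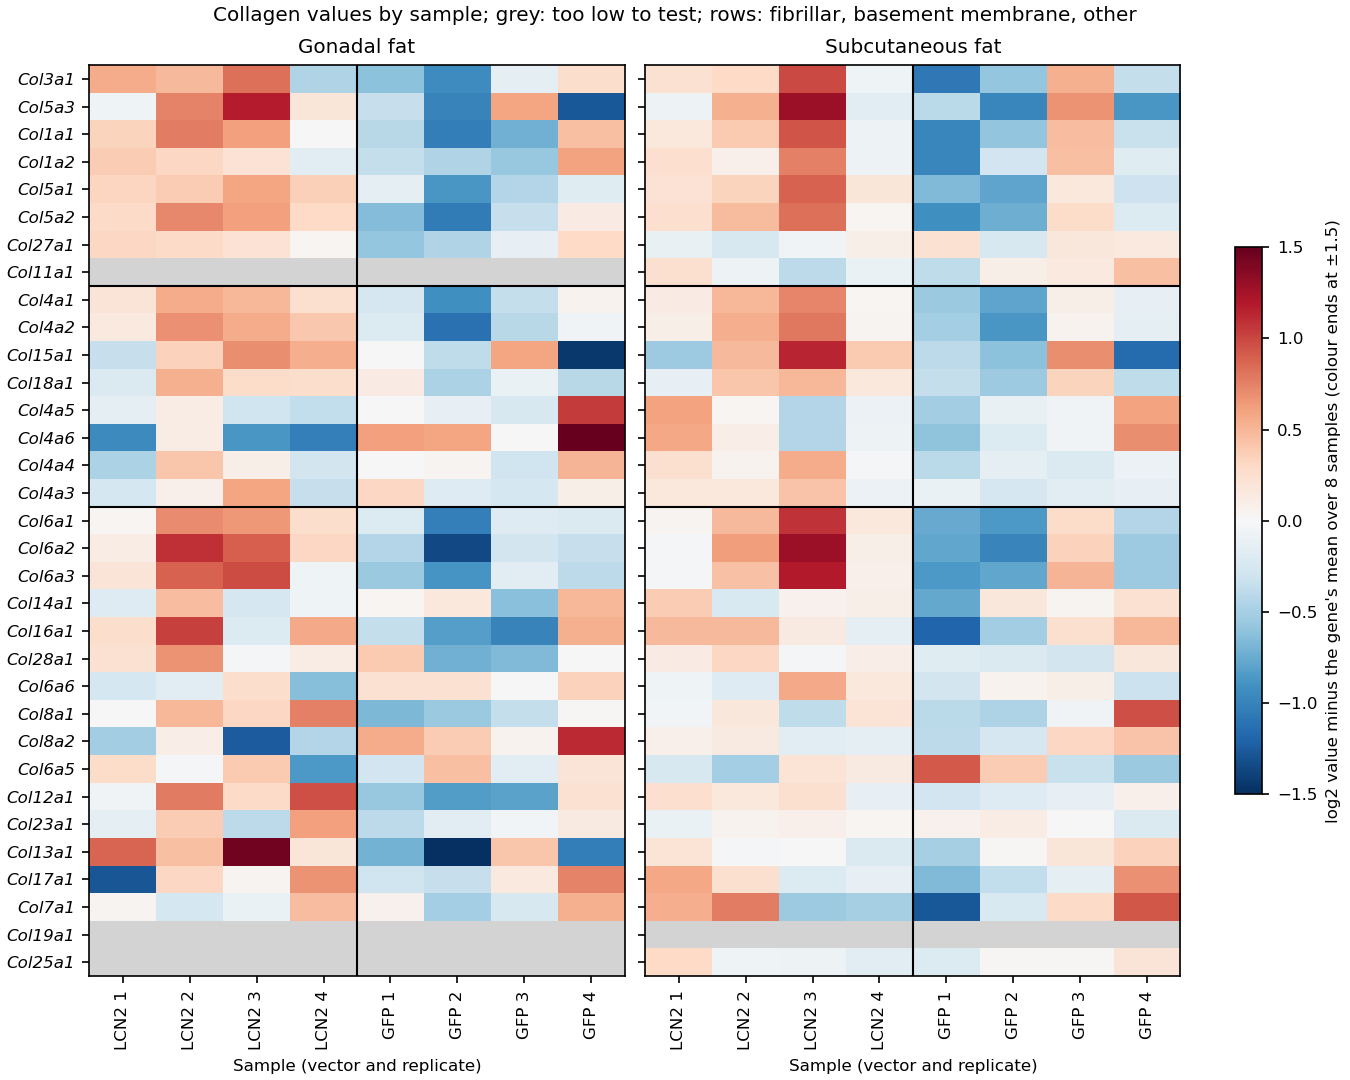
Value of each collagen in each sample, as log2 value minus the gene's mean over the 8 samples of that depot (colour, ending at ±1.5), with LCN2 samples left of the line and GFP samples right of it; grey rows are too low to test. The chains of types I, III and V, the common type IV chains and the 3 main type VI chains are above their mean in LCN2 replicate 3 and below it in GFP replicate 2 in both panels.

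The remaining subcutaneous collagens had smaller differences than the type VI chains. Col12a1 had 0.26 ± 0.11 (SE), Col16a1 0.49 ± 0.35 (SE), Col28a1 0.25 ± 0.12 (SE) and Col6a6 0.23 ± 0.18 (SE). Without GFP replicates 1 and 2 Col16a1 had -0.12 ± 0.19 (SE), below 0. With GFP replicate 1 alone left out it had 0.17, and with GFP replicate 4 left out 0.73. Without LCN2 replicate 3 Col6a6 had 0.084. Col14a1, Col17a1, Col7a1, Col23a1, Col6a5, Col8a1, Col8a2, Col13a1 and Col25a1 lay between -0.21 and 0.25, each within 1 SE of 0. Of these, Col17a1 had 0.094 without LCN2 replicate 1, 0.066 without GFP replicate 1 and 0.52 without GFP replicate 4. For Col7a1 the samples ranged from 8.54 to 9.85 in LCN2 samples and from 7.81 to 10.02 in GFP samples. Keratinocyte and mammary markers, all 8 above the filter here, summed to 12708 to 24922 in LCN2 samples and 11104 to 20910.2 in GFP samples.

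Set side by side, 30 collagens were tested in both depots, and 19 of them had a positive value and 2 a negative one in both. Col5a1 was the only gene of the 30 with all LCN2 samples above all GFP samples in each depot. Of all genes, 52.0% were above 0 in gonadal and 49.8% in subcutaneous fat. All LCN2 samples lay above all GFP samples in 4.40% and 3.81% of them. The share of all genes with the same pattern in both depots was not computed, so these counts do not set collagens apart from other genes. The difference between depots was not tested, because the tables have different scales. Col8a1, Col13a1 and Col27a1 had a positive value in gonadal and a negative one in subcutaneous fat. Col4a4, Col4a5, Col4a6, Col6a6, Col14a1 and Col17a1 had the opposite signs. Except for gonadal Col8a1, Col13a1 and Col4a6 and subcutaneous Col4a4, the values of these 9 genes had an unadjusted p above 0.05 in both depots.

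Genes that make, process and bind collagen passed the test in neither depot, with limma's adjusted p at least 0.0694 in gonadal and 0.308 in subcutaneous fat. Procollagen processing and cross-linking genes had 11 of 12 above 0 and a median of 0.45 in gonadal fat, and 11 of 12 above 0 and a median of 0.47 in subcutaneous fat. Adamts2, the protease that removes the amino-terminal propeptide, had 0.49 ± 0.14 (SE) in gonadal and 0.59 ± 0.18 (SE) in subcutaneous fat. The cross-linking oxidase gene Loxl1 had 0.54 ± 0.17 (SE) in gonadal fat, and Pcolce2, an enhancer of procollagen cleavage, 0.73 ± 0.23 (SE) in subcutaneous fat.

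Folding and modification genes had 14 of 19 above 0 and a median of 0.15 in gonadal fat and 19 of 19 above 0 and a median of 0.23 in subcutaneous fat. P3h1, a prolyl 3-hydroxylase, had 0.34 ± 0.095 (SE) in gonadal and 0.42 ± 0.16 (SE) in subcutaneous fat. The prolyl 4-hydroxylase subunit gene P4ha3 had a normalized count of 68.1 ± 41.0 in LCN2 samples and 13.6 ± 6.61 in GFP samples (SD, n = 4 each) in gonadal fat, a log2 fold change of 2.25 ± 0.51 (SE) with groups that did not overlap. Plod1, a lysyl hydroxylase, had 0.33 ± 0.11 (SE) in subcutaneous fat.

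Partners of fibrils had 6 of 14 above 0 and a median of -0.094 in gonadal fat and 12 of 14 above 0 and a median of 0.32 in subcutaneous fat. Sparc, a collagen-binding matricellular protein, had 0.79 ± 0.27 (SE) in gonadal and 0.80 ± 0.24 (SE) in subcutaneous fat, without overlap in either depot. Dcn, the fibril-coating proteoglycan decorin and also a fibroblast marker, had -0.59 ± 0.22 (SE) in gonadal fat, and Bgn, its relative biglycan, 0.65 ± 0.19 (SE) in subcutaneous fat. Partners of basement membranes had 15 of 20 above 0 and a median of 0.21 in gonadal fat and 19 of 20 above 0 and a median of 0.33 in subcutaneous fat. The laminin chain gene Lamb3 and the laminin receptor gene Itga7 had 1.27 ± 0.29 (SE) and 0.80 ± 0.12 (SE) in gonadal fat. Pxdn, the peroxidase that cross-links type IV collagen, and the laminin chain gene Lamc1 had 0.52 ± 0.15 (SE) and 0.45 ± 0.13 (SE) in subcutaneous fat.

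Genes of collagen breakdown and its inhibition had 7 of 14 above 0 and a median of 0.0026 in gonadal fat. In subcutaneous fat they had 12 of 14 above 0 and a median of 0.18. Because the list mixes enzymes with the inhibitor gene Timp3, these counts give no direction for breakdown. Fap, a fibroblast protease, had 0.55 ± 0.15 (SE) and the membrane metalloproteinase gene Mmp16 -0.99 ± 0.28 (SE) in gonadal fat. Timp3, a metalloproteinase inhibitor, and Mrc2, which takes up collagen fragments, had 0.38 ± 0.12 (SE) and 0.76 ± 0.24 (SE) in subcutaneous fat. Collagen receptors had 5 of 8 above 0 and a median of 0.16 in gonadal fat and 5 of 8 above 0 and a median of 0.21 in subcutaneous fat. The integrin subunit gene Itga1 had 0.46 ± 0.21 (SE) in gonadal and 0.44 ± 0.17 (SE) in subcutaneous fat, Itga2 0.58 ± 0.25 (SE) in gonadal fat and Itgb1 0.34 ± 0.10 (SE) in subcutaneous fat.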

How the data were processed

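Per the labels' protocols, total RNA from 16 samples was made into stranded mRNA libraries. HISAT2, DESeq2, GRCm38 and mm10 are named in the submitters' processing notes. For tool versions, read counting, use of strand and annotation, details were not given in the sources used here. The authors deposited a gonadal signal per gene (reads divided by size factors), in which 100% of values were whole multiples (tolerance 1e-06) of what 1 read is worth in the sample, and subcutaneous rlog values on a log2 scale. Recovered reads had a median of 37423116, and 3 reads, the limit that a count of 0 allows, equal 0.0699 to 0.0853 CPM, for counting error only. Library pairs of 1 group differed by more than sampling noise (chi-square per gene at least 45.8).

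Groups and replicate numbers came from the labels. Since these values are not raw counts, limma 3.58.1 (R 4.3.3, with an intensity trend) compared LCN2 with GFP within each depot over all genes past the filter, 19536 gonadal (pseudocount 1) and 20302 subcutaneous, with p adjusted over all of them. Fold changes with a pseudocount understate low genes. EdgeR 4.0.16 and DESeq2 1.42.0 were run on recovered reads as alternatives. Other alternatives covered scaling, filters, pseudocounts, a replicate block and left-out libraries. The test functions were checked on simulated data with known changes. Symbols were matched for 99.2% of IDs in each table. Coordinates and exon lengths come from GENCODE M21 (GRCm38), and promoters from RefSeq. The collagens and the gene lists were chosen with earlier results of these data known. All collagens were named, and of each partner list the 2 genes with the smallest p in each depot, since none passed.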

Additional observations from a re-analysis of the deposited data

Results flagged for a closer look

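Among 124 sets of 4 values (each tested collagen, depot and vector), 3 had a sample far from the other 3, where about 1 in 20 sets would by chance. For gonadal Col6a1 in GFP replicate 2, with a normalized count of 13419 against 23575 or more in the other GFP samples, the gap was 0.977 of the group's range on the log2 scale. For gonadal Col6a2 in the same library, with 8846 against 16758 or more, the gap was 0.853. For gonadal Col4a6 in LCN2 replicate 2, with 162 against 81.6 or less in the other LCN2 samples, the gap was 0.864. Without GFP replicate 2 the log2 fold change was 0.62 for Col6a1 and 0.95 for Col6a2, and without LCN2 replicate 2 it was -1.64 for Col4a6.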

How the results depend on the processing

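Limma called 20 genes in gonadal fat, 6 with scaling by library totals, 11 with a mean of at least 50, 0 with a replicate block, 0 without LCN2 replicate 4 and GFP replicate 2 (muscle markers), and 0 without the 3 libraries highest in hepatocyte genes. In the last 3 fits 2636, 1689 and 1622 genes were at an unadjusted p under 0.05. EdgeR called 7 and DESeq2 818. Leaving out 1 sample gave 1 to 66, with the most without GFP replicate 4 and 1 to 3 without LCN2 replicate 3 or 4 or without GFP replicate 1, 2 or 3. No collagen was called in any of these limma or edgeR fits, and DESeq2 called 11. In subcutaneous fat no alternative called a gene. Same-numbered LCN2 and GFP libraries did not deviate together in every pair (correlations of -0.36 to 0.42 in gonadal and -0.36 to 0.34 in subcutaneous fat), so the numbers were not taken as pairs. With the replicate block 14 gonadal and 13 subcutaneous collagens had an unadjusted p under 0.05, against 16 and 11 without it. Over all genes 2636 and 3200 did with the block, against 2895 and 2851 without it. The subcutaneous number was 5831 with sample quality weights, 1602 with the lymph node covariate and 919 without GFP replicates 1 and 2.

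The number of calls stayed within 1.5 times its value in 54 recomputed counts and moved further in 14. Most counts that stayed were 0 in both fits, as were all subcutaneous ones and those of gonadal collagens with limma or edgeR. The number of gonadal genes called, 20 with all samples, moved in more fits than it stayed. The number at an unadjusted p under 0.05 stayed within 1.5 times its value in 54 and moved in 14. The 102 recomputed medians moved by less than 1 SD between samples, a wide limit. Of single collagens, 975 recomputed values kept their sign and side of the threshold, 11 passed it with DESeq2, and 60 turned in sign, for which the cause was not tested. In gonadal fat signs turned without LCN2 replicate 4 and GFP replicate 2 in Col6a5 (0.30), Col7a1 (-0.22), Col14a1 (0.037), and without the 3 hepatocyte libraries in Col17a1 (0.18). In subcutaneous fat they turned with median centring in Col8a1 (0.0003), Col13a1 (0.0053), Col25a1 (0.018), with sample quality weights in Col8a1 (0.31), Col8a2 (0.10), Col23a1 (-0.029), without GFP replicates 1 and 2 in Col4a5 (-0.25), Col4a6 (-0.28), Col6a5 (0.34), Col7a1 (-0.54), Col14a1 (-0.056), Col16a1 (-0.12), Col17a1 (-0.15), and with a lymph node marker score as covariate in Col4a5 (-0.18), Col4a6 (-0.19), Col6a5 (0.20), Col7a1 (-0.43), Col14a1 (-0.0043), Col17a1 (-0.054). With 1 sample left out, gonadal log2 fold changes ran for Col4a3 from -0.16 to 0.15, Col4a4 from -0.28 to 0.027, Col6a5 from -0.25 to 0.17, Col7a1 from -0.080 to 0.27, Col14a1 from -0.24 to 0.13, Col17a1 from -0.37 to 0.28, and subcutaneous differences ran for Col4a5 from -0.15 to 0.26, Col4a6 from -0.11 to 0.33, Col6a5 from -0.43 to 0.066, Col7a1 from -0.27 to 0.47, Col8a1 from -0.18 to 0.29, Col8a2 from -0.18 to 0.093, Col13a1 from -0.19 to 0.091, Col14a1 from -0.069 to 0.26, Col23a1 from -0.043 to 0.066, Col25a1 from -0.11 to 0.055. The 4 samples per group limit precision, rlog values give no depth, and the 11 DESeq2 calls rest on that tool alone.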

Other observations

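The basement membrane collagen Col15a1 was the lowest of its group in GFP replicate 4 of both depots, a pattern noticed in these data. It had a gonadal normalized count of 11282 there, against 23682 or more in the other GFP samples, and a subcutaneous rlog of 12.84, against 13.37 or more. Col5a3 was the lowest of the gonadal group there, with 7586, against 9151 or more, and the second lowest of the subcutaneous group, with 12.69, against 12.58 in GFP replicate 2. Col18a1 was the second lowest in both depots, with 5864 and 12.36, against 5599 and 12.19 in GFP replicate 2. In the same gonadal library 19 of the 30 tested collagens had their highest GFP value and 2 their lowest. Col1a1, Col1a2, Col3a1, Col4a5, Col4a6 and Col8a2 were among the 19. The labels do not say whether GFP replicate 4 is 1 mouse in both depots.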
